A study of Mus musculus with 18 samples.

Results

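The cytosolic heat shock proteins examined here were 10 genes, namely the regulator Hsf1, the HSP70 genes Hspa1a, Hspa1b and Hspa8, the HSP110 gene Hsph1, the HSP90 gene Hsp90aa1, the co-chaperones Dnajb1 and Bag3, and the small heat shock proteins Cryab and Hspb1. They were taken by symbol from a table of 54186 gene symbols, in which all 10 were found, and all 10 were among the 20244 genes with enough counts to be tested. The table held bulk RNA sequencing of pancreatic islets from 18 mice of 6 weeks of age on an FVB background, with 1 library per mouse, about 165 islets per library and 6 mice in each of 3 genotypes. WT mice carried no transgene, hIAPP mice carried human islet amyloid polypeptide (IAPP) under the insulin II promoter, and rIAPP mice carried the rodent peptide under the same promoter, so that both transgenes were placed in beta cells. Library totals were 144.3 to 166.2 M counts in WT, 109.6 to 141.5 M in hIAPP and 127.6 to 157.5 M in rIAPP. The library names carry an animal number, no number recurs between genotypes, and what mice of neighbouring numbers share (litter, day or batch) was not given, and the labels gave no line or founder number for either transgene. The tissue label held for beta cells in every library, with Ins2 at 24991 to 64284 CPM (counts scaled to a common library total of 1 M) and none of 9 beta cell markers at 0.

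Heat shock factor 1, encoded by Hsf1, is kept inactive in unstressed cells by the chaperones themselves, and is released when misfolded proteins occupy them. It then forms trimers on heat shock elements, which are runs of inverted GAA units, and raises transcription of inducible chaperones such as Hspa1a, Hspa1b, Dnajb1, Hsph1 and Hspb1. Human IAPP is a beta cell peptide that forms aggregates and amyloid, whereas the rodent sequence does not form amyloid. The comparisons therefore ask how the cytosolic chaperones stand in islets that carry a transgene for either peptide. No level of either transgene is given here.

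In hIAPP islets, 4 of the 10 genes were higher than in WT and none was lower: Hsph1, Cryab, Hspb1 and Bag3, by 1.41- to 1.69-fold. A gene was called at an edgeR quasi-likelihood p under 0.05 after Benjamini-Hochberg adjustment over all genes tested, and of all genes 8.31% were called higher and 7.53% lower in that comparison (15.8% in either direction). Of the inducible chaperones named above, Hsph1 and Hspb1 were called, and Hspa1a, Hspa1b and Dnajb1 were not. The 95% intervals of these last genes reached log2 fold changes of 0.66, 0.66 and 0.37, so increases up to those sizes remain possible. In rIAPP islets, 2 of the 10 were higher than in WT, Cryab and Hspb1, and none was lower, where 14.1% of all genes were called higher, 12.6% lower and 26.8% in either direction. Set directly against rIAPP, hIAPP islets had higher Hsph1 and Hsf1, again with none lower, where 13.5% of all genes were called higher, 14.1% lower and 27.6% in either direction. The median log2 fold change of the 10 genes was 0.21 for hIAPP against WT, with all 10 values above 0, -0.05 for rIAPP against WT, with 4 above 0, and 0.28 for hIAPP against rIAPP, with all 10 above 0. Over all genes tested the medians were -0.01, -0.01 and -0.00. At an unadjusted p under 0.05 there were 4, 3 and 4 of the 10 genes in these comparisons. Each pair of comparisons shares 6 libraries, so their values are set side by side and not counted as separate evidence. In bulk islet RNA, fewer cells of a type and less RNA per cell cannot be told apart.

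**Figure D1:**
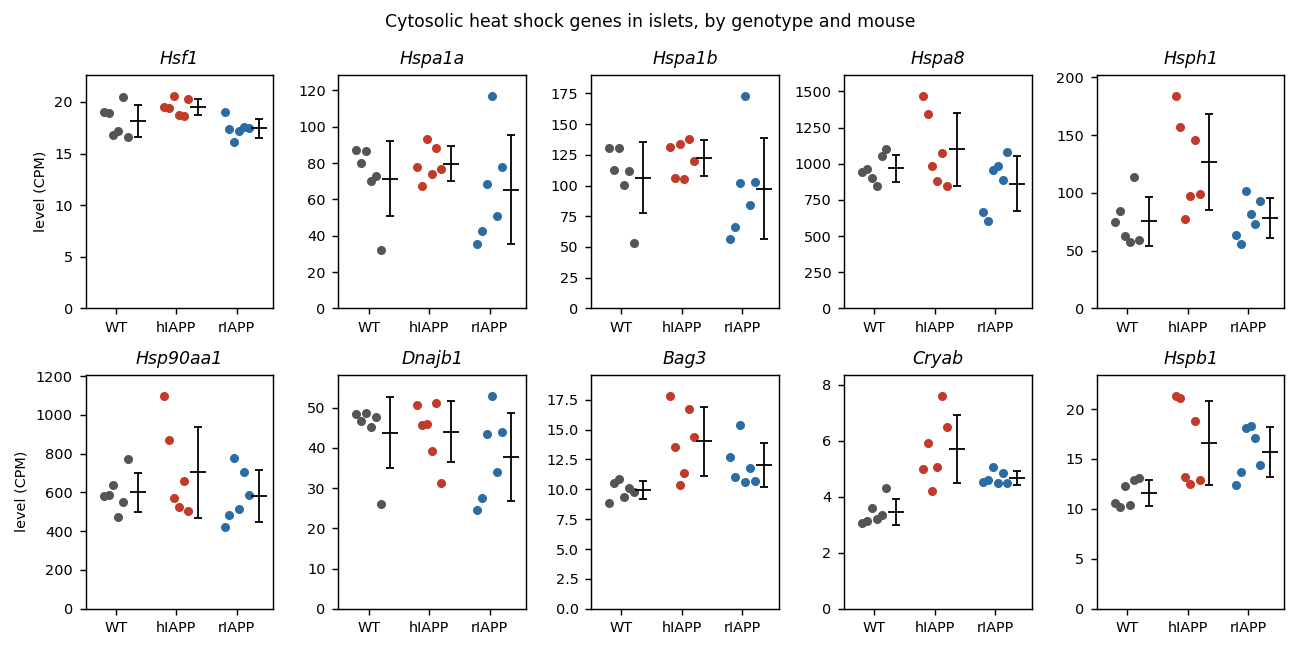
Level of each of the 10 genes in CPM (vertical axes, starting at 0) in the 18 mice, with 1 point per mouse and the mean ± SD of 6 mice beside each genotype. Cryab is the gene whose rIAPP mice (4.49 to 5.06) all lie above WT (3.05 to 4.31), Hsph1 is highest in hIAPP (up to 184), and Hspa1a, Hspa1b and Dnajb1 each show 1 low WT mouse.

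Levels were compared between genes per length, as CPM per kb of the union of annotated exons. Such a union can be longer than any single transcript. In WT islets the most abundant transcript was Hspa8, the constitutive HSP70, at 225 ± 22.0 CPM per kb (SD, n = 6), followed by Hsp90aa1 at 153 ± 25.4. Their ranges, 196 to 256 and 120.3 to 196, met at their edges. The inducible HSP70 genes came next, with Hspa1b at 38.0 ± 10.2 and Hspa1a at 24.1 ± 6.94 CPM per kb and overlapping ranges. Dnajb1 (13.7 ± 2.75), Hspb1 (11.2 ± 1.28) and Hsph1 (10.4 ± 2.94) could not be ordered beyond their spread. Bag3 stood below them at 3.87 ± 0.292 CPM per kb with a range apart from all others. Hsf1 (2.56 ± 0.217) and Cryab (2.33 ± 0.316) were lowest and overlapped each other. In hIAPP islets the mean of Hsph1 was 17.5 ± 5.74 CPM per kb, above the means of Hspb1 (16.1 ± 4.08) and Dnajb1 (13.7 ± 2.37), with overlapping ranges. Hsf1 (2.75 ± 0.118) had the lowest mean of the 10 on this scale. In rIAPP islets Hsf1 was also the lowest by its mean (2.46 ± 0.131). The union length was 7099 bases for Hsf1, 2562 for Bag3 and 1479 for Cryab. In CPM without the length, Hsf1 (18.2 in WT) stood above Bag3 (9.92) and Cryab (3.45), so its low rank depends on that length.

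The promoters were read to show which of these genes carry a heat shock element in the immediate upstream region. RefSeq promoter windows on GRCm38.p6 of 300 bases, 250 before and 50 after a start site, were matched by symbol for 6 of the 10 genes: Hspa1a, Hspa1b, Hspb1, Hsph1, Bag3 and Dnajb1. Exact matches to GAANNTTC or TTCNNGAA were sought, which are pairs of inverted units spaced by 2 bases and read the same on both strands. Of 32851 windows of all genes, 15.1% held at least 1 such pair and 0.603% held 3 units in a row. Of the 6 genes, 5 held a pair and 1, Hsph1, held 3 units in a row, while Dnajb1 had no match in its windows. The match of Bag3 lay 42 bases after its start site. The sequences below are shown because the stretches from Hspa1a and Hspa1b are the same letters over the match. They are written 5′ to 3′ on the gene's strand with the matches in capitals, and lie at chr17:34972207-34972306 (minus strand, Hspa1a), chr17:34959289-34959388 (minus strand, Hspa1b), chr5:135887769-135887868 (plus strand, Hspb1), chr5:149636351-149636380 (minus strand, Hsph1 upstream of its distal start site) and chr5:149636287-149636307 (minus strand, Hsph1 after that start site).
Hspa1a: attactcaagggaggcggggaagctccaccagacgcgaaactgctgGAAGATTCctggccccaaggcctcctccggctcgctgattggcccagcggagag
Hspa1b: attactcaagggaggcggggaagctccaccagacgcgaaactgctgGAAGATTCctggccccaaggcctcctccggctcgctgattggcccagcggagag
Hspb1: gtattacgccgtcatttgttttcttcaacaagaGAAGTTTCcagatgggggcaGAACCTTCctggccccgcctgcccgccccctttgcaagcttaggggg
Hsph1, upstream: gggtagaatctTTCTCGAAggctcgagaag
Hsph1, after the start: ctgcagaTTCTGGAAAGTTCt

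The match began at -104 from the start site in both Hspa1a and Hspa1b, at -117 and -97 in Hspb1, and at -33, 36 and 41 in Hsph1, where the last 2 overlap to form the run of 3 units. The Hsph1 match at -33 lies before the RefSeq start site but inside the annotated exons of Hsph1. Those exons take in 40 of the 250 bases before that site. Over the 250 upstream bases, Hspa1a and Hspa1b were identical at 247, or 98.8%. A match describes letters in a window and is no evidence of binding in these islets, and a window without a match says nothing of the factor.

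Hsf1 itself (chr15:76477422-76501913, GRCm38, plus strand) varied least of the 10 genes. Its level ran from 16.6 to 20.5 CPM in WT with a median of 18.1, from 18.6 to 20.6 in hIAPP with a median of 19.4, and from 16.1 to 19.0 in rIAPP with a median of 17.5. All hIAPP mice lay above the rIAPP median and 4 of 6 above the highest rIAPP mouse, while WT overlapped both. Between hIAPP and rIAPP the log2 fold change was 0.16 ± 0.06 (SE; edgeR adjusted p = 0.0433), a level 1.12-fold higher. Against WT, the changes of 0.10 (95% interval -0.01 to 0.22) in hIAPP and -0.05 (-0.17 to 0.06) in rIAPP did not pass. The Hsf1 call was lost in 17 of 30 alternative analyses of hIAPP against rIAPP, in which the adjusted p ran from 0.0232 to 0.200. Of 5 further genes of the HSF family and HSF1-binding proteins, none was called in hIAPP against WT. In rIAPP, 1 was called, Hsf4, a lens and stress factor of the same family, which stood at 1.04 ± 0.274 CPM against 2.20 ± 0.488 in WT (-1.09 ± 0.18 on the log2 scale, edgeR adjusted p = 9.66e-05). Hsf4 did not overlap between rIAPP and WT, where 6.75% of all genes lay wholly below WT, nor between rIAPP and hIAPP (2.24 ± 0.250 CPM), where 6.52% of all genes were wholly higher in hIAPP.

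The inducible HSP70 genes Hspa1a (chr17:34969190-34972156, minus strand) and Hspa1b (chr17:34956436-34959238, minus strand) refold proteins after stress and were the most variable of the 10 genes between mice. Hspa1a ran from 31.9 to 87.2 CPM in WT (median 76.3), from 67.1 to 93.4 in hIAPP (median 77.5) and from 35.2 to 117 in rIAPP (median 59.8). The 3 genotypes overlapped throughout, with mouse WT 6 lowest of all and rIAPP 4 highest. Hspa1b ran from 53.0 to 130.4 CPM in WT, 105 to 138 in hIAPP and 56.6 to 173 in rIAPP, with the same 2 mice at the ends. The log2 fold changes of Hspa1a were 0.16 (95% interval -0.35 to 0.66) for hIAPP against WT, -0.13 (-0.63 to 0.38) for rIAPP against WT and 0.28 (-0.22 to 0.79) for hIAPP against rIAPP. Those of Hspa1b were 0.20 (-0.26 to 0.66), -0.13 (-0.59 to 0.33) and 0.33 (-0.13 to 0.79). None passed, and the intervals leave room for changes of either sign. Without WT 6, Hspa1a in hIAPP differed from WT by 0.01 (edgeR adjusted p = 0.993). Without rIAPP 4, Hspa1b was called higher in hIAPP than in rIAPP (0.57, edgeR adjusted p = 0.0311). Since 47.1% of the 100-base windows of Hspa1a transcripts also occur in Hspa1b, reads could have been split between them, and the ratio of Hspa1b to Hspa1a counts stayed within 1.32 to 1.68 in all 18 libraries. With both genes summed, the changes were 0.18, -0.13 and 0.31, and none passed.

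Hspa8 (chr9:40800984-40810087, plus strand), the constitutive HSP70 that also drives uncoating of clathrin vesicles, ran from 843 to 1100.1 CPM in WT (median 953). It ran from 847 to 1469 in hIAPP (median 1028) and from 605 to 1084 in rIAPP (median 919). The groups overlapped, with hIAPP 1 (1469) and hIAPP 2 (1343) above all other mice and rIAPP 1 (665) and rIAPP 2 (605) below all others. Its log2 fold changes were 0.18 (95% interval -0.12 to 0.49) for hIAPP against WT, -0.17 (-0.47 to 0.14) for rIAPP against WT and 0.35 (0.04 to 0.66, edgeR adjusted p = 0.0850) for hIAPP against rIAPP. None passed, but the last was called with DESeq2 (adjusted p = 0.0438) and in edgeR without hIAPP 6 (adjusted p = 0.0459) or without rIAPP 6 (adjusted p = 0.0391). The animal numbers of hIAPP 1 and hIAPP 2 are neighbours, as are those of rIAPP 1 and rIAPP 2, and the part of anything such mice share was not tested. Hspa8 shares 58.5% of its 100-base windows with a processed pseudogene, Gm15459, listed at 379 to 979.5 CPM. The ratio of Gm15459 to Hspa8 counts was 0.600 to 0.667 in every library, and the fold changes of Gm15459 were 0.18, -0.17 and 0.35, so its counts and those of Hspa8 could not be told apart.

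Hsph1 (chr5:149614287-149636376, minus strand) encodes an HSP110 chaperone that exchanges nucleotide on HSP70 and helps dissolve aggregates. In WT mice 1 to 6 its level was 74.6, 84.1, 62.4, 57.6, 114 and 59.1 CPM. In hIAPP mice it was 184, 157, 77.2, 97.4, 146 and 99.1 CPM, and in rIAPP mice 63.2, 56.1, 102, 81.8, 73.4 and 93.2 CPM. All 6 hIAPP mice were above the WT median, but only 3 (hIAPP 1, 2 and 5) were above the highest WT mouse, so the groups overlapped. The log2 fold change was 0.75 ± 0.21 for hIAPP against WT (edgeR adjusted p = 0.0171) and 0.70 ± 0.21 for hIAPP against rIAPP (edgeR adjusted p = 0.0157). In rIAPP against WT it was 0.06, with a 95% interval of -0.37 to 0.49. Without hIAPP 1 and hIAPP 2 the change against WT was 0.48 (edgeR adjusted p = 0.129) and that against rIAPP 0.42 (edgeR adjusted p = 0.145), and neither passed. Leaving out each library in turn, the change against WT stayed within 0.62 to 0.91 and remained called.

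Hsp90aa1 (chr12:110690605-110702728, minus strand), the stress-inducible HSP90 that matures kinases and steroid receptors, ran from 473 to 772 CPM in WT (median 586). It ran from 506 to 1097 in hIAPP (median 615) and from 421 to 777 in rIAPP (median 551). The highest mice were hIAPP 1 (1097) and hIAPP 2 (868), while the other 4 hIAPP mice lay at 506 to 661, inside the WT range. The log2 fold change was 0.23 (95% interval -0.15 to 0.61) for hIAPP against WT, -0.05 (-0.43 to 0.33) for rIAPP against WT and 0.27 (-0.11 to 0.66) for hIAPP against rIAPP. Without hIAPP 1 and hIAPP 2 the value against WT was -0.09.

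Dnajb1 (chr8:83608193-83612653, plus strand), the J-domain protein that hands clients to HSP70, ran from 26.0 to 48.7 CPM in WT (median 47.3), from 31.2 to 51.1 in hIAPP (median 45.9) and from 24.6 to 52.9 in rIAPP (median 38.8). The groups overlapped, and the lowest levels were in rIAPP 1 (24.6), WT 6 (26.0) and rIAPP 2 (27.6). Its log2 fold change was 0.01 (95% interval -0.36 to 0.37) for hIAPP against WT, -0.21 (-0.58 to 0.15) for rIAPP against WT and 0.22 (-0.15 to 0.59) for hIAPP against rIAPP.

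Bag3 (chr7:128523616-128546981, plus strand) links HSP70 and small heat shock proteins to selective autophagy. It was 8.87 to 10.9 CPM in WT (median 9.95), 10.4 to 17.8 in hIAPP (median 14.0) and 10.6 to 15.4 in rIAPP (median 11.4). Of the hIAPP mice, 5 of 6 lay above the highest WT mouse, and hIAPP 3 overlapped WT, while 4 of 6 rIAPP mice lay above it. The log2 fold change was 0.50 ± 0.12 for hIAPP against WT (edgeR adjusted p = 0.00684) and 0.28 ± 0.12 for rIAPP against WT (edgeR adjusted p = 0.0912, not called). The latter was called with library totals alone (0.39, edgeR adjusted p = 0.0219) and with only the 2 genotypes compared in the fit (0.29, edgeR adjusted p = 0.0285). The difference between hIAPP and rIAPP was 0.22 (95% interval -0.02 to 0.47) and did not pass. Without hIAPP 5 and hIAPP 6, the libraries with the highest acinar marker levels of their genotype, the change against WT was 0.42 (edgeR adjusted p = 0.0505).

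Cryab (chr9:50751325-50756636, plus strand), or alpha B-crystallin, is a small heat shock protein that holds unfolded proteins without using ATP. Its level was 3.05 to 4.31 CPM in WT (median 3.29), 4.20 to 7.60 in hIAPP (median 5.50) and 4.49 to 5.06 in rIAPP (median 4.57). All 6 rIAPP mice lay above all WT mice, as did 8.13% of all genes tested, and 5 of 6 hIAPP mice did so. The log2 fold change was 0.73 ± 0.12 for hIAPP against WT (edgeR adjusted p = 3.48e-04) and 0.44 ± 0.12 for rIAPP against WT (edgeR adjusted p = 0.00891). The difference between hIAPP and rIAPP was 0.29 (95% interval 0.04 to 0.54, edgeR adjusted p = 0.0788) and did not pass. Exons of Cryab overlap those of Hspb2 on the opposite strand over 379 bases. The strand setting of the counting is not given in the sources used here, Hspb2 had a median of 46 counts, and reads from the shared bases cannot be told apart.

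Hspb1 (chr5:135887919-135889563, plus strand) encodes a small heat shock protein that also binds actin filaments. It was 10.2 to 13.1 CPM in WT (median 11.5), 12.5 to 21.3 in hIAPP (median 16.0) and 12.4 to 18.3 in rIAPP (median 15.8). All 6 mice of each transgenic genotype lay above the WT median, with 4 hIAPP mice and 5 rIAPP mice above the highest WT mouse. The log2 fold change was 0.52 ± 0.14 for hIAPP against WT (edgeR adjusted p = 0.0155) and 0.44 ± 0.14 for rIAPP against WT (edgeR adjusted p = 0.0251), while hIAPP and rIAPP differed by 0.08 (95% interval -0.21 to 0.38). Within hIAPP the mice fell apart, with hIAPP 1 (21.3), hIAPP 2 (21.1) and hIAPP 5 (18.8) above the other 3 (12.5 to 13.2). Without hIAPP 1 and hIAPP 2 the change against WT was 0.31 (edgeR adjusted p = 0.128). The rIAPP call was lost when WT 1, WT 2, WT 4, rIAPP 3 or rIAPP 4 was left out (edgeR adjusted p from 0.0546 to 0.0624).

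**Figure D2:**
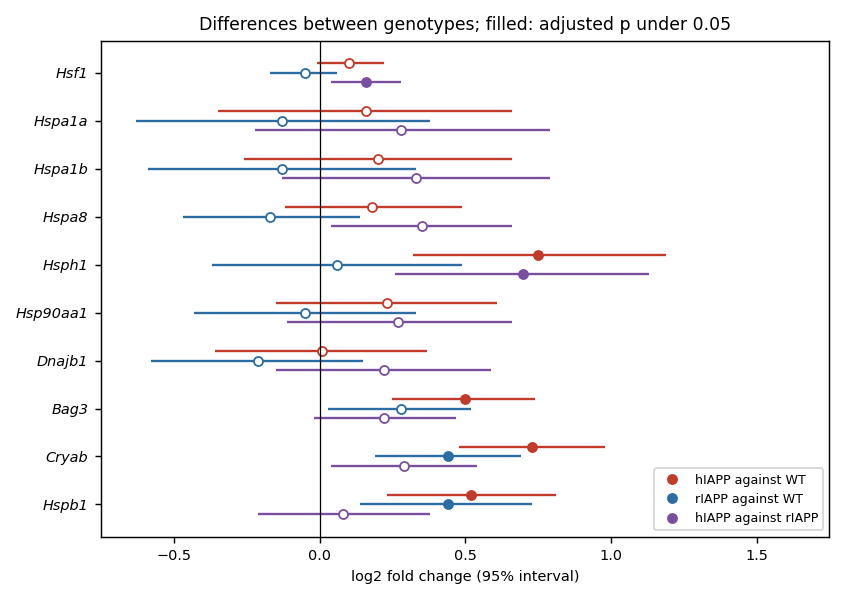
Log2 fold change of each gene (horizontal axis) with its 95% interval in the 3 comparisons, from the edgeR fit of 18 libraries; filled points passed an adjusted p of 0.05. Filled points for hIAPP against WT are Hsph1 (0.75), Bag3 (0.50), Cryab (0.73) and Hspb1 (0.52), for rIAPP against WT Cryab (0.44) and Hspb1 (0.44), and for hIAPP against rIAPP Hsph1 (0.70) and Hsf1 (0.16).

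The 10 genes differed widely in how far mice of the same genotype lay from each other. The SD of log2 CPM within genotypes was 0.49 for Hspa1a, 0.44 for Hspa1b, 0.40 for Hsph1, 0.36 for Dnajb1 and 0.35 for Hsp90aa1. It was 0.28 for Hspa8, 0.27 for Hspb1, 0.22 for Bag3, 0.21 for Cryab and 0.09 for Hsf1. For the 11023 genes with a mean at or above that of the lowest of the 10, the median was 0.13, and 98.8% had a smaller SD than Hspa1a but only 15.4% a smaller SD than Hsf1. The median over the 10 genes was 0.32, beside 0.11 for 17 chaperones of the endoplasmic reticulum (ER), 0.13 for 14 subunits of the TRiC chaperonin and prefoldin, 0.30 for 18 integrated stress response genes and 0.30 for 18 immediate-early genes.

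Some of these genes had similar patterns over the 18 libraries. Likeness was measured as the root mean square difference between z-scored log2 CPM over the 18 libraries, where 0 is the same pattern. It takes in differences between genotypes as well as the spread within them, and is given as a description, since all values come from the same libraries. The closest pair was Hspa1a and Hspa1b (0.18), followed by Dnajb1 with Hspa1a (0.47) and with Hspa1b (0.48). In all 3 genes WT 6 was lowest in WT, rIAPP 1 and rIAPP 2 lowest in rIAPP, and rIAPP 4 highest. Hspa8 and Hsp90aa1 (0.63) formed a further pair with hIAPP 1 and hIAPP 2 at the top. Bag3 and Cryab (0.65) formed another. In WT 6 the directions parted, since log2 CPM was 1.09 below the WT mean for Hspa1a but 0.38 above it for Hsp90aa1. The least alike were Dnajb1 and Cryab (1.53).

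**Figure D3:**
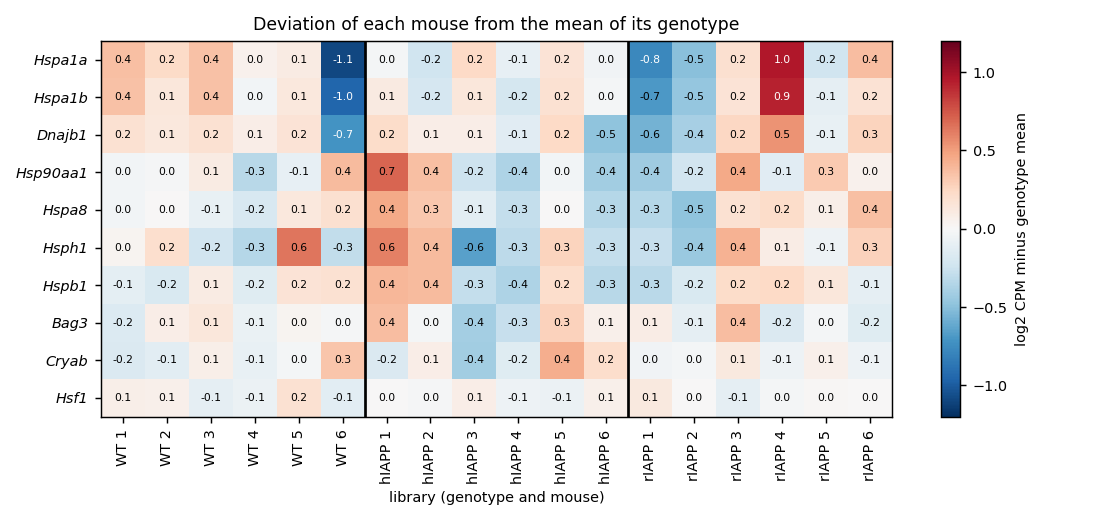
Difference in log2 CPM between each mouse (columns) and the mean of its genotype for the 10 genes (rows), with the value to 1 decimal in each cell and the colour scale from blue (lower) to red (higher). Hspa1a, Hspa1b and Dnajb1 are low together in WT 6, rIAPP 1 and rIAPP 2, whereas Hsp90aa1, Hspa8, Hsph1 and Hspb1 are high together in hIAPP 1 and hIAPP 2.

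Among genes outside the 10 with a mean of at least 5 CPM, the pattern nearest to Hsph1 was that of Ahsa2 (0.33), an activator of the HSP90 ATPase, followed by Rbm14 (0.47), an RNA-binding protein, and P2ry1 (0.50), an ADP receptor. Ahsa2 was 22.3 CPM in hIAPP, 16.6 in WT and 14.9 in rIAPP on average. It was called higher in hIAPP than in rIAPP (log2 fold change 0.58, edgeR adjusted p = 0.0223) but not against WT (0.43, edgeR adjusted p = 0.122). Nearest to Hsp90aa1 were Hspe1 (0.31) and Hspd1 (0.37), which form the mitochondrial chaperonin, and Hsp90ab1 (0.36), the constitutive cytosolic HSP90, and all 3 peaked in hIAPP 1. For Hspa8 they were its pseudogene Gm15459 (0.12), then Hspa4l (0.47), an HSP110 relative, and P2ry1 (0.48). Among the genes near Cryab were Anxa1 (0.34), an annexin, and Lipa (0.34), lysosomal acid lipase, both highest in hIAPP 5. The nearest genes to Bag3 were Cald1 (0.61), Timp2 (0.62) and Clec2d (0.63), and those of Hspb1 were Fbxo30 (0.51), Clec2d (0.54) and Plod3 (0.55). For Hspa1a they were Thap4 (0.63), Abca3 (0.71) and H2ac24 (0.71), and for Hspa1b the same genes at 0.59, 0.73 and 0.73. For Dnajb1 they were Get1 (0.68), Arl2 (0.70) and Fut11 (0.71), so that these 3 heat shock genes were closer to each other than to any of those. Hsf1 was nearest to Mks1 (0.44), Mau2 (0.47) and Ap5z1 (0.47).

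**Figure D4:**
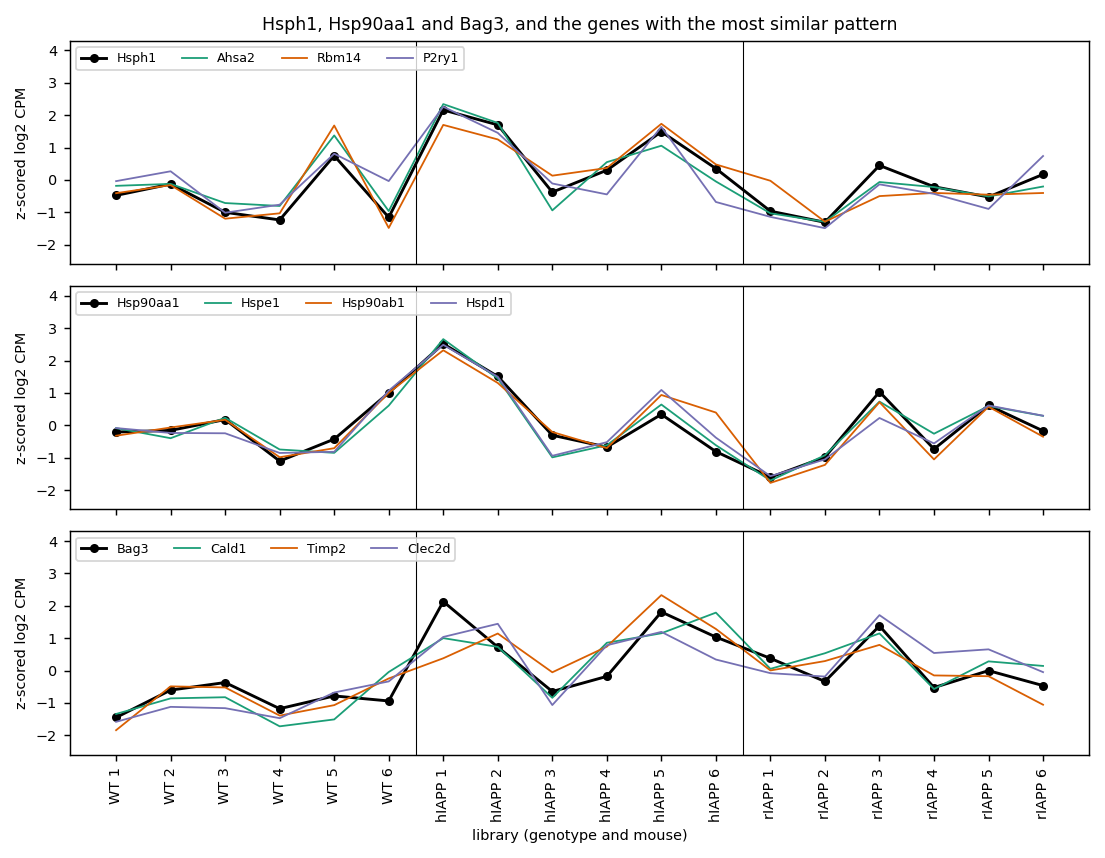
Z-scored log2 CPM (vertical axes) in the 18 mice (horizontal axis, vertical lines between genotypes) for Hsph1, Hsp90aa1 and Bag3 in black and the 3 genes with the most similar pattern in colour. Hsp90aa1 and its neighbours peak in hIAPP 1, with a root mean square difference of 0.31 to 0.37, and the genes nearest to Bag3 follow it less closely, at 0.61 to 0.63.

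Other cell types also differed between the genotypes. Fits with the stellate and acinar scores as covariates are described below. What part these cells have in the levels of the heat shock genes was not tested. Of all genes, 8.31% were called higher and 7.53% lower in hIAPP against WT, and 14.1% and 12.6% in rIAPP against WT. Of 12 stellate, fibroblast and smooth muscle markers, 10 were higher in hIAPP than in WT and 9 in rIAPP, with summed levels of 839.7 to 1181 CPM in WT, 1125 to 2037 in hIAPP and 1447 to 2315 in rIAPP, and none at 0. With the score of these markers as a covariate, an alternative added after the data were seen, none of the 4 hIAPP calls passed, at 0.90 for Hsph1, 0.41 for Bag3, 0.43 for Cryab and 0.53 for Hspb1 (edgeR adjusted p from 0.0936 to 0.180). Without this covariate these values were 0.75, 0.50, 0.73 and 0.52. Over all genes, calls in hIAPP against WT fell from 3208 to 784 with it. In rIAPP against WT the same covariate left Cryab at 0.01 and Hspb1 at 0.45, neither called. Of 19 acinar markers, 17 were higher in hIAPP and 19 in rIAPP, with summed levels of 1088 to 4608 CPM in WT, 2962 to 21202 in hIAPP and 4904 to 21694 in rIAPP, and none at 0. With the acinar score as a covariate, Hsph1 (1.32), Hspb1 (0.84) and Bag3 (0.60) remained called in hIAPP against WT, Hspa8 (0.58, edgeR adjusted p = 0.0316) and Hsp90aa1 (0.72, edgeR adjusted p = 0.0243) were called as well, and Cryab (0.59, edgeR adjusted p = 0.0503) was not. Every rIAPP mouse lay above every WT mouse in both summed levels, so that in rIAPP against WT these markers and the genotype cannot be told apart. Of 12 macrophage markers, 11 were higher in hIAPP than in WT (summed levels 313 to 615 against 108 to 124 CPM) and 6 were lower in rIAPP (71.5 to 86.3), with none at 0. Of 7 Schwann cell markers, 5 were higher in hIAPP and 2 in rIAPP. Of 9 beta cell markers, 6 were lower in hIAPP and 8 in rIAPP. Of 18 immediate-early genes, which respond to handling and isolation, 2 were higher in hIAPP than in WT, Egr2 (0.95) and Klf6 (0.29), 1 was lower, Ier5 (-0.30), and none was called in rIAPP against WT. The Egr2, Klf6 and Ier5 calls were lost in 10, 14 and 10 of 30 alternative analyses. The immediate-early scores, the mean log2 levels of the list, were set side by side as well. They differed by 0.08 between hIAPP and WT (exact two-sided permutation test of 6 against 6, p = 0.600, adjusted 0.678 over 39 score tests) and by 0.16 between rIAPP and WT (exact p = 0.119, adjusted 0.166), where 0.00216 is the smallest p possible.

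Further chaperone and co-chaperone genes were counted over lists. The counts here and in the lists below stand beside the shares of all genes called. These were 8.31% higher and 7.53% lower in hIAPP against WT, 14.1% and 12.6% in rIAPP against WT, and 13.5% and 14.1% in hIAPP against rIAPP. In hIAPP against WT, none of 9 other HSP70, HSP90 and HSP110 genes was higher and 4 were lower. They included Hspa12b, an atypical endothelial HSP70 relative, at 5.08 ± 0.590 against 7.81 ± 0.385 CPM (log2 fold change -0.62 ± 0.08, edgeR adjusted p = 4.14e-05), and Hspa12a at -0.45 ± 0.08 (edgeR adjusted p = 6.63e-04), beside the ribosome-bound HSP70 relative Hspa14 at -0.22. Hspa12b and Hspa12a lay wholly below WT, as did 2.89% of all genes, and Hspa12b also lay wholly below rIAPP (-0.60 ± 0.08), as did 6.85%. Of 10 endothelial markers, 3 were lower in hIAPP than in WT and 10 lower than in rIAPP. In rIAPP against WT all 10 were higher, while Hspa12b differed by -0.03 (edgeR adjusted p = 0.870). The part of endothelial cells in the Hspa12b level was not tested. Of 14 cytosolic J-domain genes 1 was higher and 4 lower, with Dnajc27 at -0.41, Dnajc5, a synaptic vesicle protein, at -0.16 and Dnajc8 at -0.35. The Dnajc27, Dnajc5 and Dnajc8 calls were lost in 5, 9 and 7 of 30 alternative analyses (edgeR adjusted p up to 0.628), and that of Hspa14 in 7. The Hspa12a call was lost with the acinar or the stellate score as a covariate (edgeR adjusted p up to 0.0881), and that of Hspa12b was kept. Of 21 co-chaperones of HSP70 and HSP90 none was higher and 2 were lower, Bag4 (-0.23) and Bag5 (-0.20), both from the family of Bag3. The Bag5 call was lost in 24 of 30 alternative analyses (edgeR adjusted p up to 0.394) and the Bag4 call in 13 of 30 (up to 0.646). Of 14 TRiC and prefoldin genes 1 was lower, Pfdn4 (-0.32), a call lost in 10 of 30. Among these co-chaperones, Ahsa1 (0.26 ± 0.14, edgeR adjusted p = 0.235), Stip1 (0.29 ± 0.15, edgeR adjusted p = 0.235) and Chordc1 (0.24 ± 0.19, edgeR adjusted p = 0.445) did not pass. They were chosen after their values were seen and are no measure of HSF1 activity. The related Ahsa2 (0.43 ± 0.18, edgeR adjusted p = 0.122) did not pass against WT either.

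Among other small heat shock proteins 5 of 8 had enough counts, and 1 was higher in hIAPP than in WT: Hspb7, a muscle-enriched member, at 2.20 ± 0.583 against 1.09 ± 0.330 CPM with no overlap, where 3.74% of all genes lay wholly above WT. Its log2 fold change was 1.01 ± 0.19 (edgeR adjusted p = 0.00109), and against rIAPP it was 0.98 ± 0.19 (edgeR adjusted p = 5.09e-04). The call against WT was lost with the acinar or the stellate score as a covariate (down to 0.65, edgeR adjusted p up to 0.130). Hspb8, the small heat shock protein that pairs with BAG3, stood at 61.9 CPM in hIAPP, 46.9 in WT and 41.9 in rIAPP, and was called only against rIAPP (0.56 ± 0.17, edgeR adjusted p = 0.0194). That call was lost without hIAPP 1, without hIAPP 2, without both, and with either of these scores (down to 0.23, edgeR adjusted p up to 0.239). Of 8 genes listed for selective autophagy with BAG3, Hspb8 itself among them, 3 were above WT and 1 below it in hIAPP islets. Sqstm1, the p62 cargo receptor, was 368 ± 54.1 against 271 ± 15.1 CPM (0.44 ± 0.08, edgeR adjusted p = 0.00112). Map1lc3b, an autophagosome protein, was 106 ± 3.92 against 83.3 ± 3.66 CPM (0.35 ± 0.04, edgeR adjusted p = 1.86e-05), and the receptor Optn was lower (-0.27 ± 0.06, edgeR adjusted p = 0.00408). With the acinar or the stellate score as a covariate the calls of Sqstm1 (down to 0.28, edgeR adjusted p up to 0.162) and Optn (edgeR adjusted p up to 0.256) were lost, and that of Map1lc3b was kept. In rIAPP also 3 were higher and 1 lower, with Map1lc3b at 0.19, Synpo2, an actin-binding partner of BAG3, at 0.51 and Optn at -0.63. Between hIAPP and rIAPP 4 of the 8 were higher, namely Hspb8 as given above, Sqstm1 (0.38 ± 0.08, edgeR adjusted p = 0.00158), Optn (0.36) and Map1lc3b (0.17). The Synpo2 call was lost with the acinar score, and with the stellate score its value was -0.01.

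In rIAPP against WT, the lists held 1 lower gene among 9 other HSP70, HSP90 and HSP110 genes, 5 lower among 14 J-domain genes, and 2 higher and 4 lower among 21 co-chaperones. Of all genes, 14.1% were called higher and 12.6% lower in that comparison (26.8% in either direction). The HSP70 relative Hspa12a was 21.5 ± 1.35 CPM against 60.1 ± 5.20 in WT (-1.48 ± 0.08 on the log2 scale, edgeR adjusted p = 4.86e-11) with no overlap, and 43.9 ± 5.93 in hIAPP. Dnajc13, an endosomal J-domain protein, was 77.4 ± 7.41 against 116 ± 5.79 CPM (-0.59 ± 0.06, edgeR adjusted p = 1.04e-07), and Dnajc27 (-0.44) and Dnajc6 (-0.20), an auxilin of clathrin uncoating, were lower too. Bag4 (-0.54) and Bag2 (-0.53) were lower, and Bag2 was also lower than in hIAPP, by 0.47 as hIAPP against rIAPP. With the stellate score as a covariate the rIAPP against WT calls of Dnajc27, Dnajc6, Bag4 and Bag2 were lost. Those of Hspa12a and Dnajc13 were kept. No TRiC or prefoldin gene of 14 was called. In hIAPP against rIAPP, 1 of 9 other HSP70, HSP90 and HSP110 genes was higher, Hspa12a (1.03), and 3 were lower, including Hspa13 (-0.26). Of 14 J-domain genes 3 were higher, Dnajc13 (0.57), Dnajb2 (0.26) and Dnaja4 (0.30), and 1 was lower. Of 21 co-chaperones 6 were higher and 3 lower, with Bag4 at 0.31 and Bag5 at -0.41. Of 14 TRiC and prefoldin genes 1 was higher, the chaperonin subunit Cct5 (0.34). Between hIAPP and rIAPP, 13.5% of all genes were called higher and 14.1% lower (27.6% in either direction).

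The chaperones of other compartments and the integrated stress response, the ATF4 pathway that acts beside heat shock, were read in the same way. In hIAPP against WT, 1 of 17 ER chaperones was called, Creld2 (0.31 ± 0.05, edgeR adjusted p = 1.45e-04), and the list median was 0.02. Between rIAPP and WT, 6 of the 17 were higher in rIAPP and 1 lower, with a median of 0.15. The disulfide isomerase P4hb was 911 ± 52.8 against 716 ± 39.5 CPM (0.35 ± 0.05, edgeR adjusted p = 6.32e-05), Sdf2l1 was 0.42 ± 0.08 (edgeR adjusted p = 4.26e-04) and Creld2 0.32 ± 0.05 (edgeR adjusted p = 2.07e-05). The Sdf2l1 call was lost with the acinar or the stellate score as a covariate (edgeR adjusted p up to 0.299). That of P4hb was lost with the stellate score (edgeR adjusted p = 0.0777), and that of Creld2 was kept. In hIAPP against rIAPP none was higher and 4 were lower, with a median of -0.13, among them Hsp90b1, the HSP90 of the ER (-0.34), P4hb (-0.21) and Pdia4 (-0.19). Of 11 mitochondrial chaperones and proteases, 3 were higher in hIAPP than in WT and none was lower. They were the proteases Lonp1 (0.33 ± 0.08, edgeR adjusted p = 0.00777) and Clpp (0.18) and the co-chaperone Grpel2 (0.14). The Grpel2 call was lost in 15 of 30 alternative analyses and the Clpp call in 10 of 30. The Lonp1 call was lost with the acinar or the stellate score as a covariate (edgeR adjusted p up to 0.290). Against WT, rIAPP islets had 1 higher, Grpel2 (0.20), and in hIAPP against rIAPP Lonp1 (0.42) and Trap1 (0.13) were higher and Clpx (-0.24) was lower. Of 18 integrated stress response genes, 15 were higher and none lower in hIAPP against WT, with a median log2 fold change of 0.86, and 16 were higher in rIAPP against WT, with a median of 0.57. Trib3, a pseudokinase induced downstream of ATF4, was 9.51 ± 5.71 CPM in hIAPP against 1.17 ± 0.384 in WT (3.02 ± 0.32, edgeR adjusted p = 2.48e-06). Nupr1, a stress-induced chromatin protein, was 143 ± 94.8 against 14.4 ± 4.47 CPM (3.31 ± 0.35, edgeR adjusted p = 3.08e-06), and Ddit3, which encodes CHOP, was 1.36 ± 0.17 (edgeR adjusted p = 1.78e-05). Between rIAPP and WT, Nupr1 (2.57), the cystine transporter gene Slc7a11 (2.04) and Sesn2 (0.87) had the smallest p of the list, and in hIAPP against rIAPP Trib3 (1.12), Ddit3 (0.87) and Vldlr (0.52) did. The median over the 10 cytosolic heat shock genes was 0.21 and -0.05 in the same comparisons. These lists were written with earlier results of these data known, and their medians describe them without a test.

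**Figure D5:**
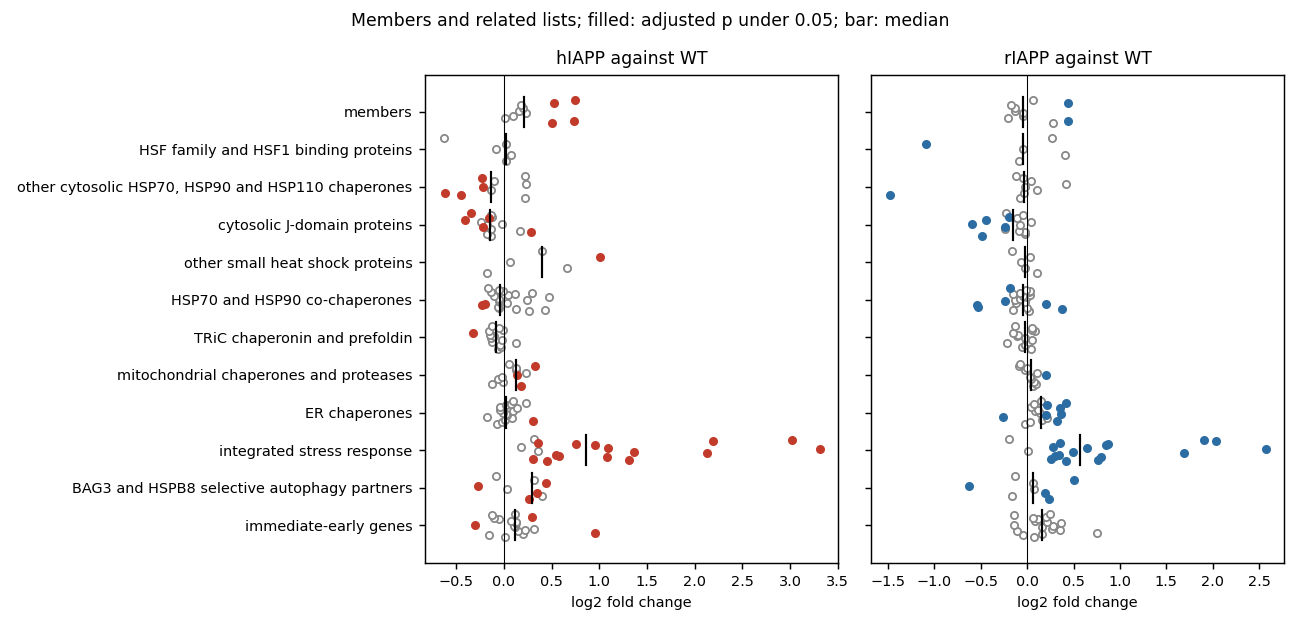
Log2 fold change (horizontal axes) of the 10 genes, in the row named members, and of 11 related gene lists, with 1 point per gene, filled at an edgeR adjusted p under 0.05 and with a black bar at the list median. In hIAPP against WT the median of the integrated stress response list is 0.86 and that of the 10 genes 0.21; in rIAPP against WT they are 0.57 and -0.05.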

How the data were processed

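The deposited table holds expected counts (estimated counts, not normalised) per gene symbol for 18 libraries, made by the authors with STAR and HTSeq on GRCm38 (mm10), per the submitters' processing notes. Versions, annotation, strand setting and the origin of fractional values were not given in the sources used here. Of values above 0, 39.2% were not whole (tolerance 0), and they were rounded. Libraries followed Ribo-Zero depletion, per the labels' protocols.

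Counts were fitted in edgeR 4.0.16 under R 4.3.3. Low genes were removed by filterByExpr (20244 kept), libraries scaled by TMM, and a quasi-likelihood model with 1 mean per genotype was fitted to the 18 libraries and tested two-sided with Benjamini-Hochberg adjustment over all genes. In simulated counts with known changes, the fit recovered 10.2% of 1.2-fold, 58.0% of 1.5-fold, 68.0% of 2.0-fold and 98.0% of 4.0-fold changes. It called 1 of 19813 unchanged genes. The simulation used the general trend of the spread and not that of each gene, so these shares do not describe the 10 genes. Levels are CPM scaled by TMM. Log2 CPM used a prior count of 2. The SE comes from the fold change and its F value. Each library is 1 mouse, and any precision from counts is counting error alone. Positions and exon lengths come from GENCODE M21 on GRCm38.

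All 10 genes are named, with the up to 3 called genes of smallest p in each list and the 3 nearest patterns (1 near Cryab and 1 list gene are not reported here), and Ahsa1, Stip1 and Chordc1 were chosen after their values were seen. Members and lists were chosen with earlier results of these data known. Scores are mean log2 CPM of a marker list, tested by exact permutation with 39 tests in the family. Alternatives were DESeq2 1.42.0, other scaling, filters and covariates, and fits with libraries left out.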

Additional observations from a re-analysis of the deposited data

Results flagged for a closer look

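In WT 6, Hspa1a was 31.9 CPM while the other 5 WT mice lay at 70.1 to 87.2, so that its gap to the nearest was 0.69 of the whole range, above the limit of Dixon's test for 6 samples. In the same mouse Dnajb1 was 26.0 CPM while the others lay at 45.2 to 48.7, a gap of 0.85 of the range. No other of the 30 groups of 6 mice (10 genes in 3 genotypes) passed the limit, and chance flags about 1 group in 20. Without WT 6, the log2 fold change of Dnajb1 was -0.11 for hIAPP against WT and -0.33 for rIAPP against WT, and neither passed.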

How the results depend on the processing

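Over 906 alternative values for the 10 genes, 831 kept the direction and the side of the threshold, 35 lost a call, 11 gained one and 29 changed sign. Over 1980 such values for the named list genes, 1798 did so, 181 lost a call and 1 changed sign. In hIAPP against WT, 4 of the 10 genes were called under each single library left out. None was called with the stellate score as a covariate and 2 (Bag3 and Cryab) without hIAPP 1 and hIAPP 2, both settings chosen after seeing the data. Of all genes, 3208 were called, against 786 with the acinar score, 784 with the stellate score and 1675 without hIAPP 5 and hIAPP 6. In rIAPP against WT, the 2 called genes became 1 (Hspb1) with the acinar score, 0 with the stellate score and 1 to 2 with a library left out, and 5417 calls over all genes became 2099 and 1254 with these scores. In hIAPP against rIAPP, the 2 became 1 (Hsph1) with library totals alone, without a filter on low counts, with the acinar or immediate-early score and without hIAPP 5 and hIAPP 6. They became 1 (Cryab) with the stellate score, 0 without hIAPP 1 and hIAPP 2, and 1 to 2 with a library left out.

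Among the 10 genes, sign changes touched values that were not called. In hIAPP against WT without hIAPP 1 and hIAPP 2, Hspa8 was -0.03, Hsp90aa1 -0.09 and Dnajb1 -0.06, and Dnajb1 was -0.02 with the immediate-early score. In hIAPP against rIAPP, Hsp90aa1 was -0.04 and Hspb1 -0.13 without hIAPP 1 and hIAPP 2, and Hspb1 was -0.03 with the acinar score. In rIAPP against WT with the acinar score, Hspa1a was 0.16, Hspa1b 0.21, Hspa8 0.38, Hsp90aa1 0.63 and Dnajb1 0.25. With the stellate score, Hsf1 was 0.09, Hspa8 0.12, Hsp90aa1 0.19 and the list gene Synpo2, which had been called, -0.01. With library totals alone, Hsf1 was 0.06 and Hsp90aa1 0.08, which was also its value with the immediate-early score. With a library left out, Dnajb1 in hIAPP against WT ran from -0.11 to 0.09, and in rIAPP against WT Hspa1a ran from -0.37 to 0.00, Hsph1 from -0.03 to 0.21 and Hsp90aa1 from -0.15 to 0.04. The causes were not tested. No paired analysis was possible because no animal number recurs between genotypes and the labels tie the numbers to no litter, day or batch.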
